A study of Mus musculus with 2 samples.

Results

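The genes described here are those of polyamine synthesis and turnover, chosen by gene symbol from a list of 10: Odc1, Amd1, Srm and Sms for synthesis, Oaz1, Oaz2 and Azin1 for control by antizyme, and Sat1, Smox and Paox for breakdown. Of the 10, 4 were found among the 15644 named genes of the values table, namely Odc1, Azin1, Smox and Sms. The other 6, among them the antizyme genes themselves, were not analysed here. The list was drawn up with the Odc1 difference already known, so that difference is given as a description and supports nothing further. Both groups were primary hepatocytes, liver parenchymal cells taken from a C57BL/6 male, 9 weeks old, and kept in culture for 24 h before treatment. The DMSO group received the solvent dimethyl sulfoxide. The PCN group received 10 µmol/l pregnenolone 16α-carbonitrile, a steroid that activates the rodent pregnane X receptor (PXR), a nuclear receptor of drug metabolism. Treatment lasted 12 h. RNA from 3 samples was pooled for each group and hybridised to 1 Affymetrix array, so the comparison rests on 2 arrays with no replicates, no test and no error between cultures.

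Polyamines (putrescine, spermidine and spermine) are small positively charged molecules that bind nucleic acids and are needed for growth and translation. Ornithine decarboxylase, the product of Odc1, makes putrescine from ornithine, and the synthases encoded by Srm and Sms extend it with aminopropyl groups that come from S-adenosylmethionine through the enzyme encoded by Amd1. Antizymes bind ornithine decarboxylase and send it to the proteasome, and antizyme inhibitor, the product of Azin1, is an inactive relative of the enzyme that captures antizyme. Ornithine decarboxylase in liver is a classical marker of the growth response, for example after partial hepatectomy. Much of the control of this pathway acts on translation and protein stability, which an mRNA array does not measure.

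The stretches upstream of Odc1, which had the largest difference, and of Smox, which also lay well above the floor, are shown for comparison of the regulatory sequence of a synthesis and a breakdown gene. Both come from RefSeq on GRCm38.p6, plus strand, and end just before the gene's first annotated base, at chr12:17544623-17544807 for Odc1 (185 bases) and chr2:131491612-131491857 for Smox (246 bases). The start site to which each RefSeq window is anchored lies further on, with 65 bases left out before it for Odc1 and 4 for Smox, and those bases were not searched. Capitals mark the GC box letters GGGCGG on either strand.
Odc1: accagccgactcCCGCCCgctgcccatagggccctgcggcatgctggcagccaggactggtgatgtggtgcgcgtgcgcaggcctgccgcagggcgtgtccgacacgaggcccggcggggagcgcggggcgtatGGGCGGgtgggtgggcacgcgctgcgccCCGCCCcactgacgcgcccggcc
Smox: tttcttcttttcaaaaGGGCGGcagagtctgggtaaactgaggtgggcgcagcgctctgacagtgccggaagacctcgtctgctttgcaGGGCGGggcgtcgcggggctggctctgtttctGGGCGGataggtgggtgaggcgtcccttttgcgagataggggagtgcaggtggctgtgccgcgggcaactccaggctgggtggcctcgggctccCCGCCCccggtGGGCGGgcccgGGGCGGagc
The Odc1 stretch is 77.8% G and C and holds 3 GC boxes, and the Smox stretch is 67.9% G and C and holds 6. Of 32851 RefSeq upstream windows, 21.8% hold at least 1 GC box in a stretch cut to the Odc1 length and 32.2% in a stretch cut to the Smox length. The windows were not matched for G and C content, and these shares do not say whether 3 or 6 boxes are unusual. Neither stretch contains the E-box CACGTG, the cyclic AMP response element TGACGTCA, or the nuclear receptor half-sites AGTTCA and AGGTCA, all searched on both strands. At the Odc1 length these are held by 3.88%, 0.648%, 9.37% and 10.5% of windows, and at the Smox length by 5.89%, 1.51%, 11.7% and 13.8%. The GC boxes do not overlap each other, and a missing match says only that the letters are not in this stretch.

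Odc1 was the polyamine gene with the largest difference between the arrays. Its intensity (the deposited background-corrected array value, on a linear scale) was 226 with DMSO and 395 with PCN. The PCN value was the higher, by 0.81 on the log2 scale or 1.75-fold. Both values lay far above the floor of 32 (5 on the log2 scale) that was set for calling a gene measured. Among the 6449 measured genes, 9 had a larger difference in the higher direction, which put Odc1 in place 10. In either direction, 40 genes (0.620%) had a difference at least that large. With a size threshold of 1.5-fold, Odc1 was the only one of the 3 measured polyamine genes that was higher by that much and none was lower by it, while 0.636% of all measured genes were higher and 1.3% lower by 1.5-fold or more. These shares are background only, since the list was drawn up with this contrast known. At 2-fold the polyamine genes had none, against 0.093% of all genes higher and 0.233% lower. At a smaller threshold of 0.32 on the log2 scale, Odc1 was again the only one that passed, against 5.27% of all genes higher and 6.17% lower. Bacterial and phage control probe sets, added from outside and so free of the treatment, show part of the technical difference between the arrays. They carry no difference between cultures, and several can read the same added transcript, so their spread is not replicate error. Over the control probe sets that reached the floor, 40 in number, the log2 difference had an SD of 0.10 and ran from -0.33 to 0.16. The Odc1 difference exceeded every one of these in size, but that does not measure the error of the single probe set that reads Odc1. On the same arrays, control probe sets for a single mRNA, pyruvate carboxylase, gave differences from -0.69 to -0.27.

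**Figure D1:**
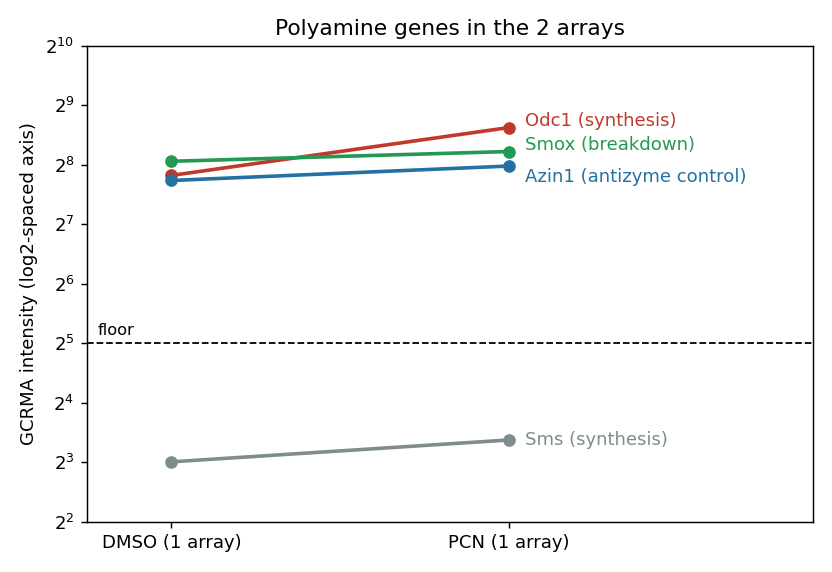
Intensity of the 4 polyamine genes in the DMSO array and the PCN array on a log2-spaced axis, with the floor of 32 as a dashed line. Each point is a single array, so there are no error bars. The Odc1 line climbs from 226 to 395, the Azin1 and Smox lines climb less, and Sms lies under the floor in both arrays. Heights of different genes come from different probe sets and are not to be compared.

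Azin1, the antizyme inhibitor gene, was measured at 213 with DMSO and 253 with PCN. This was 0.24 higher on the log2 scale, or 1.18-fold. Antizyme inhibitor frees ornithine decarboxylase from antizyme, so Azin1 and Odc1 act in the same direction on enzyme activity. The Azin1 difference was smaller in size than the most extreme control probe set, at -0.33, and 20.8% of measured genes differed by at least as much in either direction. Smox, which encodes the spermine oxidase that turns spermine back into spermidine with release of hydrogen peroxide, was measured at 267 with DMSO and 299 with PCN. Its difference was 0.16 on the log2 scale, or 1.12-fold, and 37.0% of measured genes differed by at least that much. The Azin1 and Smox differences are thus of a size that control probe sets and many other genes also reached on these arrays.

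All 3 measured polyamine genes were higher with PCN and none was lower, against 57.6% of all measured genes higher and 42.4% lower. Their median log2 difference was 0.24, against 0.03 over all measured genes. With so few members, each chosen with earlier results known, neither the count nor the median says that the pathway differs from other genes. Between members the differences were unequal. The Odc1 difference exceeded that of Azin1 by 0.56 on the log2 scale and that of Smox by 0.64, so Odc1 was 1.48-fold higher relative to Azin1 and 1.56-fold higher relative to Smox in the PCN array than in the DMSO array. Azin1 and Smox differed from each other by 0.08, less than the control SD.

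Sms, which encodes spermine synthase, the enzyme that makes spermine from spermidine, had intensities of 8.03 with DMSO and 10.4 with PCN. Both lay under the floor, so no difference is given for it. A low intensity of a probe set does not show that the transcript was absent. Of the synthesis arm, then, only the ornithine decarboxylase step could be followed, of antizyme control only the inhibitor, and of breakdown only spermine oxidase.

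**Figure D2:**
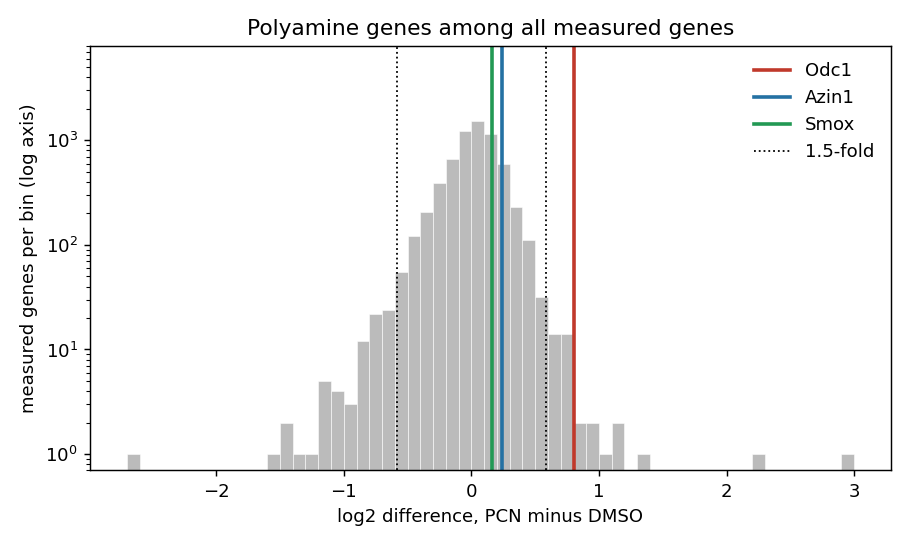
Distribution of the log2 difference (PCN minus DMSO) over the 6449 measured genes in bins of 0.1, with the number of genes on a log axis. Vertical lines mark Odc1 at 0.81, Azin1 at 0.24 and Smox at 0.16, and dotted lines mark 1.5-fold in each direction. Odc1 lies in the thin upper tail, and Azin1 and Smox lie in the body of the distribution.

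In the order of differences, the genes just above Odc1 were Cyp3a11, a CYP3A enzyme that oxidises many drugs, at 0.90 on the log2 scale, and Gadd45a, which is induced by DNA damage and halts growth, at 0.87. Just below it were the cytokine gene Il33 at 0.79 and the zinc finger gene Zfp955b at 0.78. The steps between Odc1 and each of these neighbours were under the control SD of 0.10, so their order on these arrays carries little information. Cyp3a11, a textbook PXR target, went from 8519 to 15919, and the glutathione transferase gene Gstm3 from 641 to 1580. The Odc1 difference was therefore close in size to that of Cyp3a11 and smaller than that of Gstm3, at 1.30.

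By distance in the plane of both log2 values, over the 2 arrays, the genes most like Odc1 were Bmp8b, Larp4, Dis3, Itga3 and Uck2. Bmp8b, a secreted factor of the BMP family, was nearest at a distance of 0.22, with intensities of 243 and 346. Larp4, an RNA-binding protein gene, and Dis3, a nuclease of the RNA exosome, both lay at a distance of 0.29. Itga3, an integrin alpha subunit, lay at 0.31, and Uck2, a uridine-cytidine kinase, at 0.32. All 5 were higher with PCN, by 0.37 to 0.51 on the log2 scale, and none had a difference as large as that of Odc1. They were chosen for lying close to Odc1 in both arrays, so being higher follows from that choice. Likeness over 2 arrays is a description of position and says nothing of shared function or control. The distance uses intensities of different probe sets, so it does not compare amounts of transcript.

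The relatives of the listed genes gave little that could be measured. Azin2, Oaz3, Sat2 and the diamine oxidase gene Aoc1 were under the floor in both arrays, Sat2 being the brightest of them at 19.7 and 13.4. Agmat, which encodes agmatinase, an enzyme named for making putrescine from agmatine, was measured at 200 with DMSO and 172 with PCN, 1.16-fold lower. It was thus the only measured gene of that list, and it was lower where Odc1 was higher.

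Ornithine, the substrate of ornithine decarboxylase, is supplied by arginase and moved across the mitochondrial membrane by the ornithine carrier. Of 10 listed genes of ornithine and arginine supply, 6 were measured, 4 higher and 2 lower, with a median of 0.07. Arg1, the liver arginase that cleaves arginine to ornithine and urea, was measured at 1146 with DMSO and 638 with PCN. It was 1.80-fold lower and the only measured gene of the list past 1.5-fold. Slc25a15, the mitochondrial ornithine carrier, went the other way, from 93.3 to 137, which was 1.47-fold higher. Otc, ornithine transcarbamylase of the urea cycle, was 1.11-fold higher, at 180 and 199. Oat, ornithine aminotransferase, stood at 694 and 752, and Aldh18a1, which serves ornithine synthesis from glutamate, at 82.1 and 82.9. The arginine transporter gene Slc7a2 was under the floor with PCN, at 35.4 and 30.1, and was at least 1.11-fold lower. The enzyme that makes ornithine and the enzyme that consumes it for polyamines thus differed in opposite directions at the mRNA level, Arg1 lower and Odc1 higher.

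Aminopropyl groups come from S-adenosylmethionine, and each transfer leaves methylthioadenosine, which is salvaged to methionine. Of 8 listed genes of this supply and salvage, 7 were measured, 4 higher and 3 lower, with a median of 0.01 and none past 1.5-fold. Enoph1, an enzyme of the salvage route, went from 114 to 147, which was 1.29-fold higher. Mtap, the phosphorylase that opens the salvage route, went from 548 to 665, which was 1.21-fold higher. Mat1a, the liver S-adenosylmethionine synthetase, went from 113 to 131, which was 1.17-fold higher. The lower ones were Mri1 at -0.17, Adi1 at -0.15 and Mat2b at -0.12 on the log2 scale, and Mri1 and Adi1 belong to the same salvage route as Mtap and Enoph1. Members of the salvage route thus lay on both sides of 0.

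Spermidine is the donor for hypusine, a modified lysine that the translation factor eIF5A needs. Of 4 listed genes, 3 were measured and all were higher, by small amounts, with a median of 0.05. Dhps, deoxyhypusine synthase, went from 99.5 to 110, Dohh, which completes hypusine, from 144 to 149, and Eif5a itself from 7335 to 7469. Of 10 listed genes of polyamine transport, 3 were measured, 2 higher and 1 lower, with a median of 0.12. Atp13a3, a P5B-type ATPase of polyamine uptake, was 1.12-fold higher, at 501 and 563. Slc3a2, a transporter heavy chain, was 1.08-fold higher, at 1278 and 1384, and Slc18b1, a vesicular polyamine transporter, was at least 1.14-fold lower, at 36.4 and 30.8. None of the hypusine and transport genes came near the size of the Odc1 difference.

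**Figure D3:**
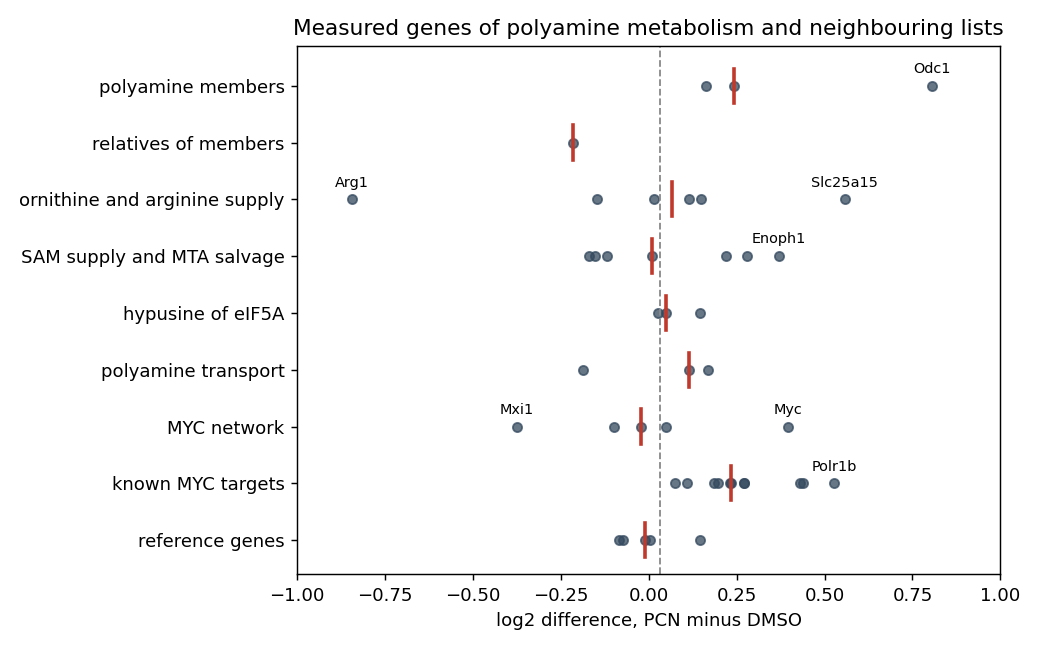
Log2 difference (PCN minus DMSO) of each measured polyamine gene and of each measured gene of the neighbouring lists, with a point per gene, red bars at list medians and a dashed line at the median of all measured genes (0.03). SAM is S-adenosylmethionine and MTA is methylthioadenosine. Odc1 at 0.81 and Arg1 at -0.85 are the extreme points, and the known MYC targets lie between 0.07 and 0.53.

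Odc1 is a textbook target of the transcription factor MYC, so the MYC network and other genes known as MYC targets were set beside it. Myc itself was measured at 784 with DMSO and 1032 with PCN, which was 1.32-fold higher. Mxi1, a repressor that competes with MYC for its partner MAX, went from 119 to 91.8, which was 1.30-fold lower, and Mlxipl, the carbohydrate-responsive relative, was 1.07-fold lower, at 348 and 325. Of 13 listed genes of the network, 5 were measured, 2 higher and 3 lower, with a median of -0.02. Max was under the floor in both arrays, at 14.6 and 19.1.

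All 11 measured genes among 16 listed MYC targets other than Odc1 were higher with PCN, from 0.07 to 0.53 on the log2 scale, with a median of 0.23. Over all measured genes the share that was higher was 57.6% and the median 0.03. None of the 11 passed 1.5-fold. Polr1b, an RNA polymerase I subunit, went from 45.2 to 65.2 (1.44-fold), but with a floor of 6 its difference became 0.03, since its DMSO value was then raised to a floor close to its PCN value. Ddx21, a nucleolar helicase, went from 208 to 282 (1.36-fold), and Pus7, a pseudouridine synthase, from 112 to 151 (1.35-fold). Cad, which starts pyrimidine synthesis, went from 106 to 128. The Odc1 difference was larger than that of each of the 11. The list was written with earlier results of these data known, and many of its genes also belong to ribosome production, so it gives no independent evidence on MYC.

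Reference genes and controls give the scale of these differences. The median of the 5 measured reference genes was -0.01, and Actb stood at 16471 and 16524, with Tubb5 1.11-fold higher, Hprt 1.05-fold lower and Tbp 1.06-fold lower. The ratio of 3′ to 5′ control probe sets, a sign of RNA integrity, was 0.59 (log2) with DMSO and 0.60 with PCN for beta-actin, and -0.02 and -0.03 for Gapdh. Controls for 18S ribosomal RNA, 3 in all, were all lower with PCN, by -0.67 to -0.34 on the log2 scale. The brightest, at 69.6 and 55.2, lay above the floor in both arrays, another, at 49.5 and 31.1, was under it with PCN, and the other was under it in both. The 4 control probe sets for pyruvate carboxylase, an enzyme mRNA of the liver, were also all lower, by -0.69 to -0.27, the brightest of them at 445 and 340. The 3 for the transferrin receptor were higher, by 0.02 to 0.17. For both of these mRNAs the 3′ probe set was far brighter than the 5′ probe set in each array. The values with DMSO were 445 against 53.3 for pyruvate carboxylase and 166 against 46.4 for the transferrin receptor. With PCN they were 340 against 44.2 and 173 against 47.0. The beta-actin and Gapdh ratios therefore do not stand for the 3′ to 5′ ratio of every mRNA. The part of the 18S and pyruvate carboxylase values in the results was not tested. Of 10 hepatocyte markers, 7 were measured, with Alb at 21685 and 21383, 2 higher and 5 lower, and their summed intensity over the markers with a value was 70504 and 69882. Most of that sum came from Alb, Apoa1, Ttr and Fgb, so it says little of the dimmer markers. Tdo2 was the lowest of the measured hepatocyte markers in log2 difference, at -0.93. Summed intensities of other cell types were 3363 and 3486 for 8 Kupffer cell and leukocyte markers (2 measured), 95.8 and 88.0 for 8 stellate cell markers (1 measured), 148 and 158 for 8 endothelial markers (2 measured) and 2039 and 2233 for 6 bile duct markers (3 measured). Most of the bile duct sum came from Cdh1 alone, and most of the Kupffer cell and leukocyte sum from Cd68 and Cd14. The Kupffer cell markers Adgre1 and Clec4f, the stellate cell markers Des and Lrat and the bile duct markers Krt7 and Epcam were all under the floor in both arrays. Measured members of these lists were Cd68 at 1690 and 1626, Cd14 at 1619 and 1802, Acta2 at 36.5 and 30.6, Stab2 at 42.1 and 37.0, Lyve1 at 30.4 and 39.8, Cdh1 at 1729 and 1900, Krt19 at 169 and 223 (1.32-fold higher) and Sox9 at 127 and 95.2 (1.34-fold lower). Their part in the polyamine gene values was not tested. In such bulk RNA, fewer cells of a type and less RNA per cell cannot be told apart, and with 1 array per group neither can a batch and the treatment.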

How the data were processed

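The deposited values are intensities on a linear scale, made by the authors with GCRMA 2.2.0, per the submitters' processing notes. Each array was hybridised with biotin-labelled cRNA of 3 pooled RNA samples (5 µg in total), per the labels' protocols. GCRMA corrects background, normalizes arrays to each other and summarises probes, so these values do not show a shift of all transcripts together. The scale was read from the values, which ran from 1.13 to 28482. For the build and the probe set definition, the sources used here name none.

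Of 16395 probe sets, 15644 carried 1 symbol in GEO's platform annotation, and no gene had a second probe set. Differences were taken on log2 values as PCN minus DMSO (Python 3.11.15, numpy 2.4.6, pandas 2.3.3). Genes under a floor of 5 (log2) in both arrays counted as not measured, and 6449 were measured. A value under it in 1 array was raised to it, which gives a lower bound ("at least"). The floor was chosen, since no detection calls were used. The number of arrays limits the precision, and no test was possible. The procedure was run on simulated arrays with planted differences larger than that of Odc1, in genes well above the floor. That run checks the calculation only and says nothing of the error of the real arrays.

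The members, lists and rules were chosen with earlier results of these data known. Named genes were the members, the 3 largest differences in each neighbouring list, the 5 genes nearest to Odc1, the 2 on each side of it in the order of differences (uncharacterised gene models left out), and Myc, Arg1, Amd2, Cyp3a11, Gstm3, Alb and Actb, of which Amd2 was not analysed here. Others were named after their values were seen. Alternatives were a floor of 4 or 6, low values as deposited, quantile normalization, median centring, subtraction of a loess trend fitted with statsmodels 0.14.6 (fraction 0.3) and size thresholds of 0.32 (log2) and 2-fold. Probe sets of related sequences, such as Odc1 and Azin1, may read a relative, which was not tested.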

Additional observations from a re-analysis of the deposited data

How the results depend on the processing

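Across the 6 other settings of floor and scaling, the log2 difference stayed between 0.76 and 0.81 for Odc1, between 0.20 and 0.24 for Azin1 and between 0.12 and 0.16 for Smox. Odc1 was the only polyamine gene past 1.5-fold in each of them, with 9 to 15 genes showing a larger difference. Sms stayed under the floor also at a floor of 4. At a 2-fold threshold 0 polyamine genes passed, and over all genes 6 were higher and 15 lower. At a threshold of 0.32 (log2), 340 were higher and 398 lower, against 41 and 84 at 1.5-fold. With a floor of 6, 55 genes were lower by 1.5-fold, since that floor leaves fewer genes and shrinks bounds. The medians of neighbouring lists moved by less than the control SD, and those of the MYC network (-0.08 to 0.03), S-adenosylmethionine (-0.04 to 0.01) and hypusine lists (-0.0009 to 0.05) crossed 0. Of 131 values of named neighbouring genes, 130 moved by less than the control SD and 1, Polr1b, moved by more. No paired analysis was possible because only 1 array per group exists here, and no replicate could be left out. Signal near background limits Sms and the other dim genes.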
